A study of Homo sapiens with 8 samples.

Results

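Long noncoding RNA genes were measured in HepG2 cells, a line grown from a human liver tumour, after 4 h with a vehicle or with 1 of 2 inhibitors of BET proteins. A gene was counted as a member when its symbol begins with LINC or SNHG, carries the ending -AS1 or -AS2 (antisense), -IT1 (intronic) or -DT (divergent), or has the form MIR...HG (host gene of a microRNA). MALAT1 and MEG3 were added by name. The rule reads names only and no measured value. It found 353 probe sets for 352 genes, of 19816 probe sets and 17845 genes tested. The members were 167 LINC genes, 132 antisense genes, 25 divergent genes, 16 microRNA hosts, 8 intronic genes, the SNHG genes SNHG17 and SNHG29, and the single named genes MALAT1 and MEG3. Of the 352 genes, 345 matched a RefSeq gene identifier, and RefSeq classes all 345 as lncRNA. Another 57 probe sets carry a symbol of this kind together with other genes and were left out. GAS5, NEAT1 and H19 had no probe set of their own and are not analysed here.

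The vehicle group was 3 arrays of cells in DMSO at 0.1%, which all treated cells also received. The JQ1 group was 2 arrays at 500 nM; a further JQ1 sample that the design names is not analysed here. The RVX-208 group was 3 arrays at 5000 nM. JQ1 occupies both bromodomains of BET proteins, and RVX-208 favours the second. Nothing in the labels shows that replicates came from separate cultures. The p-values cover no more than the scatter among the arrays at hand, which may be technical. Total RNA of whole cultures was hybridised, so fewer cells with a transcript and less transcript per cell cannot be told apart.

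BET proteins bind acetylated histones and help RNA polymerase II leave promoters and enhancers, and the inhibitors displace them from chromatin. Long noncoding RNAs are transcribed by the same polymerase but encode no known protein. Divergent transcripts start back to back with a protein-coding gene and often share its promoter region, antisense transcripts run over or beside a gene on the opposite strand, and host genes release a microRNA or small nucleolar RNA from their transcript. Many are short-lived and are degraded in the nucleus by the RNA exosome, while a few, MALAT1 among them, are stable and abundant.

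Of 3 genes listed as a check of the response to BET inhibitors, HEXIM1, MYC and SERPINI1, JQ1 called 2 higher and 1 lower. RVX-208 called 1 higher and 1 lower. Of all genes tested, 22.8% were called with JQ1 and 6.28% with RVX-208. HEXIM1, an inhibitor of the elongation kinase P-TEFb, rose by 1.49 ± 0.06 (log2 fold change ± SE, adjusted p = 9.942e-06) with JQ1 and by 0.48 ± 0.05 (adjusted p = 0.00677) with RVX-208, in limma with Benjamini-Hochberg adjustment over the 17845 genes. The 8 hepatocyte markers tested had log2 signals with a median of 13.1, and none was called in any comparison. The 11 tested markers of blood, stroma and endothelium had a median of 5.55, with LYZ the brightest at 13.24, and none was called. Arrays of the same group correlated at 0.9967 to 0.9977 over all genes and at 0.9809 to 0.9834 over the members.

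Most members were dim on these arrays. Their mean log2 signal had a median of 5.66, with quartiles at 4.92 and 6.46, against a median of 7.33 over all genes tested. Only 12 members had a mean of 8 or more. Signals of different probe sets are not RNA levels that can be ranked, but a dim probe set lies nearer to background and its fold change is compressed. The standard error of a log2 fold change was also larger for the members, with a median of 0.098 against 0.076 over all genes for JQ1 and of 0.087 against 0.068 for RVX-208.

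With JQ1, 46 of the 352 members were called at an adjusted p under 0.05 (13.1%), 10 higher and 36 lower than in DMSO. Of all genes tested, 22.8% were called, 10.7% higher and 12.0% lower. Members called higher were 2.84% and members called lower were 10.2%. At an unadjusted p under 0.05 there were 89 members, beside 6329 of all 17845 genes tested. Both JQ1 arrays lay above all DMSO arrays for 26 members and below them for 108, where the shares over all genes were 21.3% and 29.2%. The median log2 fold change of the members was -0.094, against -0.04 over all genes. With a mean log2 signal under 5, of 5 to 6 and of 6 to 7 it was -0.085, -0.099 and -0.119. All genes of like signal gave -0.048, -0.078 and -0.082. From 7 to 8 and at 8 or more it was -0.046 and -0.037, against -0.048 and 0.007. A cyclic loess normalisation of the same values, which moves dim probe sets relative to bright ones, called 22.8% of all genes. It called 16 members higher and 24 lower. Without JQ1 replicate 2 the count was 28, with 9 higher and 19 lower.

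**Figure D1:**
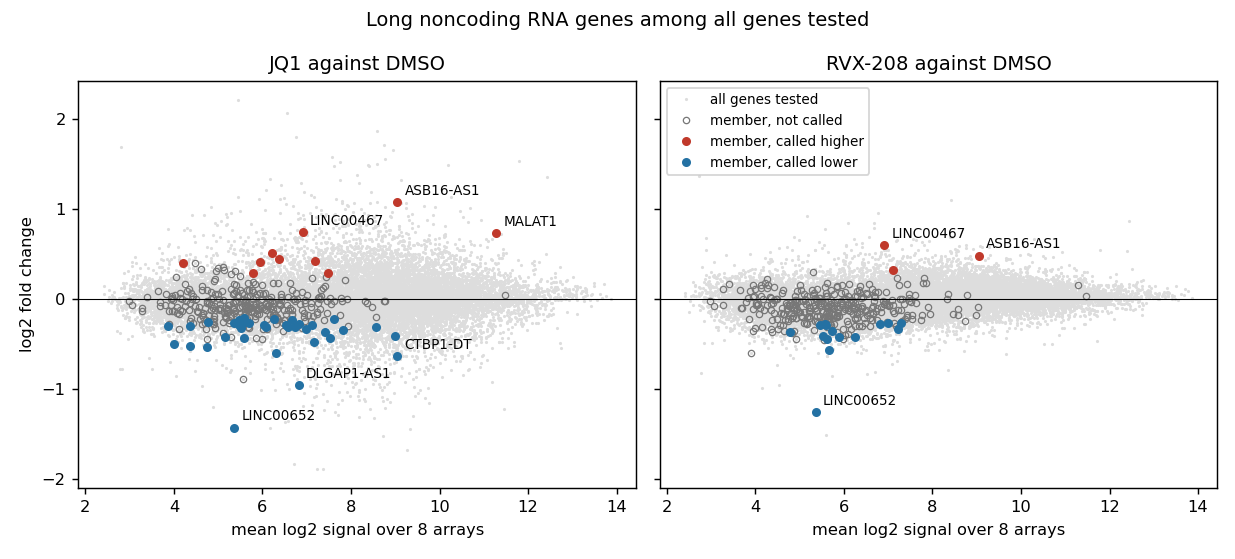
Log2 fold change against the mean log2 signal over 8 arrays, for JQ1 (left) and RVX-208 (right) against DMSO. Grey dots are all genes tested, open circles are members not called, and filled circles are members called higher (red) or lower (blue). The members gather at the dim end, and few lie past a log2 change of 0.5 in either panel.

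The share of members called rose with the signal, as it did over all genes. For JQ1 it was 7.37% of the 95 members with a mean log2 signal under 5 and 9.84% of the 122 members between 5 and 6, where all genes of the same signal gave 5.47% and 8.79%. It was 16.7% of 84 members between 6 and 7 and 20.5% of 39 members between 7 and 8, against 16.0% and 28.4%. Among the 12 brightest members 5 were called (41.7%), against 35.1% of all genes with a signal of 8 or more. The 5 were ASB16-AS1, MALAT1, CTBP1-DT, SNHG17 and LINC02983. In the 3 dimmest bands, which hold most members, the share of calls was thus close to that of all genes of like signal; no test of these differences was made. The split between higher and lower also differed with signal over all genes: 102 of 159 called genes under 5 were lower, against 1245 of 2535 at 8 or more. Between 6 and 7, 11 of the 14 called members were lower, against 266 of 435 called genes. Between 7 and 8, 5.13% of members were higher and 15.4% lower, against 13.3% and 15.1% of all genes.

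**Figure D2:**
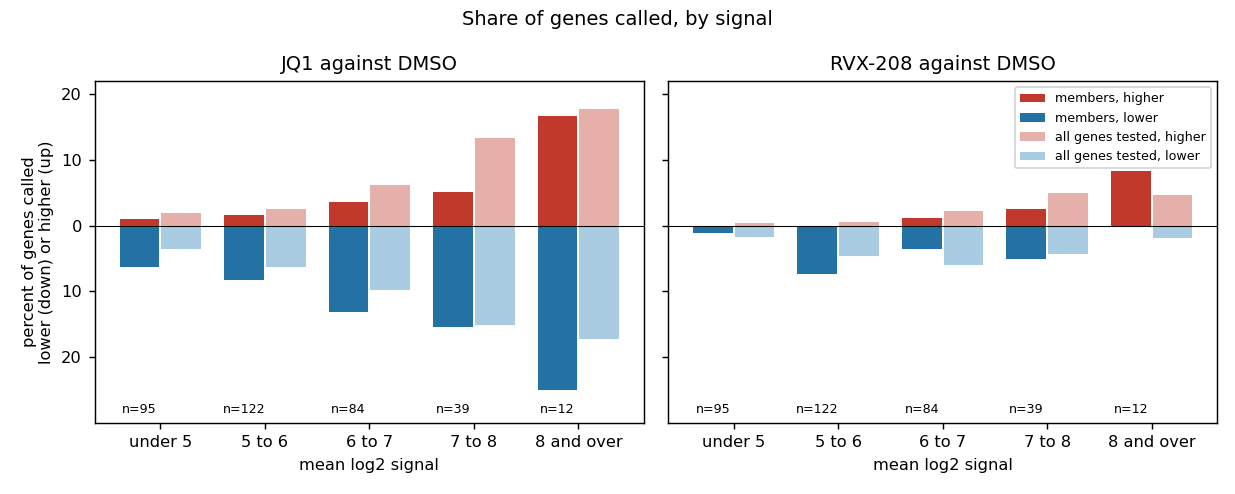
Percent of genes called higher (above 0) or lower (below 0) by band of mean log2 signal, for the members (dark bars) and all genes tested (pale bars), with the number of members under each band. Under a signal of 6, more members were called lower than higher in both comparisons, and all genes showed the same order.

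The largest rise was that of ASB16-AS1, an antisense gene on chromosome 17. Its log2 signal was 8.49, 8.75 and 8.56 in DMSO, 9.70 and 9.66 in JQ1, and 9.13, 9.04 and 9.08 in RVX-208. The 3 groups did not overlap, with RVX-208 between the others. It rose by 1.07 ± 0.08 with JQ1 (2.11-fold, adjusted p = 6.669e-05) and by 0.48 ± 0.07 with RVX-208 (adjusted p = 0.0172). The rise with JQ1 held in each of the 8 fits that left out 1 array. That with RVX-208 was lost when DMSO replicate 3 (adjusted p = 0.0584) or RVX-208 replicate 3 (adjusted p = 0.0716) was left out.

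LINC00467, an intergenic gene on chromosome 1, had log2 signals of 6.46, 6.60 and 6.45 in DMSO, 7.21 and 7.27 in JQ1, and 7.07, 7.12 and 7.11 in RVX-208. All treated arrays lay above all DMSO arrays. It rose by 0.74 ± 0.06 with JQ1 (1.67-fold, adjusted p = 0.0001246) and by 0.60 ± 0.06 with RVX-208 (1.51-fold, adjusted p = 0.00677). It was the single member called with RVX-208 in every fit that left out an array and under every other alternative. JQ1 against RVX-208 gave 0.14 ± 0.06 (adjusted p = 0.209), with a 95% interval of the difference from -0.002 to 0.28.

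MALAT1, an abundant nuclear RNA of chromosome 11 that gathers at nuclear speckles, where splicing factors are stored, behaved differently between the compounds. Its log2 signal was 11.01, 11.19 and 10.91 in DMSO, 11.72 and 11.82 in JQ1, and 11.21, 11.15 and 11.20 in RVX-208. The JQ1 arrays stood above all others, and the RVX-208 arrays overlapped those of DMSO. It rose by 0.73 ± 0.08 with JQ1 (1.66-fold, adjusted p = 0.0005016), gave 0.15 ± 0.07 with RVX-208 (adjusted p = 0.215), and was higher with JQ1 than with RVX-208 by 0.58 ± 0.08 (adjusted p = 0.00367). The first and last of these calls held in all 8 fits with an array left out. Its chromosomal neighbour NEAT1 builds paraspeckles, another nuclear body. Of 8 paraspeckle proteins tested, RBM14, which is needed to assemble paraspeckles, rose with JQ1 by 0.67 ± 0.12 (adjusted p = 0.00438), and TARDBP, an RNA-binding protein, fell by 0.29 ± 0.08. The call of TARDBP was lost without DMSO replicates 1 and 3 (0.0673 and 0.0572) or JQ1 replicate 1 (0.175). The other 6 were not called, where 22.8% of all genes were called. None of the 8 was called with RVX-208.

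The other 7 rises with JQ1 were smaller. ANKRD13C-DT, divergent to ANKRD13C, had log2 signals of 7.11, 6.88 and 7.01 in DMSO and 7.36 and 7.48 in JQ1, and rose by 0.42 ± 0.08 (adjusted p = 0.00477). LINC01555, a dim probe set with signals of 3.98 to 4.13 in DMSO and of 4.46 and 4.42 in JQ1, rose by 0.39 ± 0.07 (adjusted p = 0.00462). These 2 calls held whichever array was left out. LINC01128 rose by 0.51 ± 0.12 (adjusted p = 0.0181), lost without JQ1 replicate 1 (adjusted p = 0.129). ZBTB11-AS1 rose by 0.28 ± 0.07 and LINC00028 by 0.28 ± 0.07, at adjusted p = 0.0191 and 0.0236. Both calls were lost without JQ1 replicate 1 (adjusted p = 0.124 and 0.0653) and without DMSO replicate 2 (0.0502 and 0.0678). That of ZBTB11-AS1 was also lost without DMSO replicate 1 (0.0517), and that of LINC00028 without DMSO replicate 3 (0.0636) or JQ1 replicate 2 (0.136). Centring on housekeeping genes, which lowered the median of all genes to -0.206, left 0.12 for each (adjusted p = 0.192 and 0.249). The remaining pair, MIR22HG and MIR570HG, is described with the host genes.

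**Figure D3:**
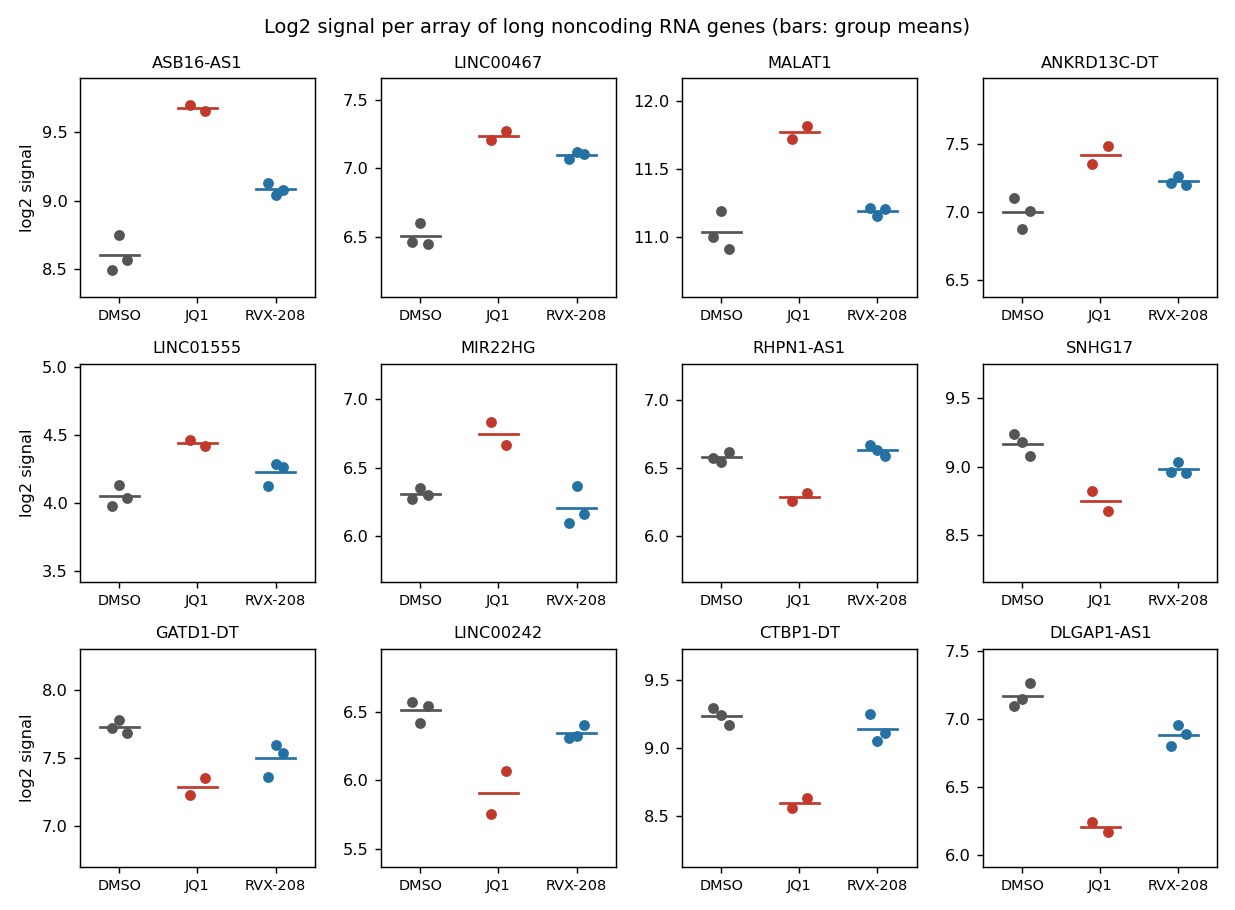
Log2 signal per array of 12 members in DMSO (grey), JQ1 (red) and RVX-208 (blue), with horizontal bars at the group means; all panels span the same log2 range. JQ1 arrays lie wholly above the DMSO arrays in the first 6 panels and wholly below them in the other 6, while RVX-208 arrays lie in between or near DMSO in most panels.

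Among the falls with JQ1, those of DLGAP1-AS1 and CTBP1-DT were the largest that held in all fits. DLGAP1-AS1, an antisense gene on chromosome 18, had log2 signals of 7.09, 7.15 and 7.26 in DMSO, 6.24 and 6.17 in JQ1, and 6.80, 6.96 and 6.89 in RVX-208. The JQ1 arrays lay furthest down and the RVX-208 arrays lay between, with no overlap. It fell by 0.96 ± 0.07 with JQ1 (1.95-fold, adjusted p = 7.306e-05). With RVX-208 it gave -0.28 ± 0.06 (adjusted p = 0.0413), a call lost whichever of the 8 arrays was left out, with adjusted p from 0.0502 (DMSO replicate 1 left out) to 0.124 (RVX-208 replicate 3 left out).

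CTBP1-DT starts back to back with CTBP1, which encodes a transcriptional corepressor. Its log2 signal was 9.29, 9.24 and 9.16 in DMSO, 8.56 and 8.63 in JQ1, and 9.25, 9.05 and 9.11 in RVX-208. The JQ1 arrays stood apart from all others, and those of RVX-208 overlapped DMSO. It fell by 0.64 ± 0.07 with JQ1 (1.55-fold, adjusted p = 0.0005275) and gave -0.10 ± 0.06 with RVX-208 (adjusted p = 0.367). CTBP1 itself, with log2 signals of 11.16 to 11.20 in DMSO and of 11.13 and 11.07 in JQ1, gave -0.08 ± 0.05 (adjusted p = 0.308).

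The promoter sequences of ASB16-AS1, CTBP1-DT and DLGAP1-AS1 are shown because their calls with JQ1 held with any array left out and their windows differ widely in base composition. Each runs from 250 bases before to 50 bases after the start in RefSeq, GRCh38.p14, 5' to 3' on the gene's own strand, and capitals mark GC boxes, the letters GGGCGG on either strand.
ASB16-AS1 (chr17:44186668-44186967, minus strand): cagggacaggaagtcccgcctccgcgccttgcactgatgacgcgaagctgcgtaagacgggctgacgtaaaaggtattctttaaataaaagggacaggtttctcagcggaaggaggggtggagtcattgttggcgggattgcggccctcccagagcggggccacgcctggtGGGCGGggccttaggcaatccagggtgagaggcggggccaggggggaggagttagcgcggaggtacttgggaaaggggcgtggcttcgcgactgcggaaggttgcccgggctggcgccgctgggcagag
CTBP1-DT (chr4:1249190-1249489, plus strand): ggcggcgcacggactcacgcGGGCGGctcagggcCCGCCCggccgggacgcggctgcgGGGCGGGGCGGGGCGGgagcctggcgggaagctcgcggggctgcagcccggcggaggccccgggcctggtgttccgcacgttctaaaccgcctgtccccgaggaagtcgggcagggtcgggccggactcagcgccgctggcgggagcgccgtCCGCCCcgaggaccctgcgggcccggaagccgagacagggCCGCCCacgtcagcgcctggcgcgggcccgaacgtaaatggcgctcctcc
DLGAP1-AS1 (chr18:3593864-3594163, plus strand): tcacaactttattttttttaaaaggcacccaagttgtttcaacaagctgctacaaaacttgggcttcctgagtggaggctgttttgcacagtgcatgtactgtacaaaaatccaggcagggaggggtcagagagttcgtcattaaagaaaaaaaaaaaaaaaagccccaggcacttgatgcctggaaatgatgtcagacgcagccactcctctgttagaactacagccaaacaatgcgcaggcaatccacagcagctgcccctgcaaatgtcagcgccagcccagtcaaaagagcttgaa
The ASB16-AS1 window is 64.3% G and C and holds 1 GC box. The CTBP1-DT window is 79.3% G and C and holds 7 GC boxes, 3 of them in the unbroken run of capitals, where neighbouring copies share a base. The DLGAP1-AS1 window is 46.0% G and C and holds none.

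Over all members, 256 of 352 matched a promoter in the RefSeq table of 27305. A window was called CpG-rich at a G and C content of 50% or more and an observed over expected CpG ratio of 0.6 or more. That held for 91.3% of the 23 divergent genes, 52.1% of 94 antisense genes and 23.5% of 119 LINC genes, against 63.4% of protein-coding and 24.1% of all lncRNA promoters in the table. Members with a CpG-rich window had a median log2 signal of 6.33, and the others 5.48. The GC box stood in 41.4% of the members' windows and 44.6% of all windows, the E-box CACGTG that MYC and its relatives can bind in 7.81% and 7.43%, CCAAT in 33.2% and 35.7%, and TATAAA in 10.5% and 12.0%, each read on both strands. Of the members with a window, 5 of the 7 called higher with JQ1, 12 of the 30 called lower and 91 of the 219 not called were CpG-rich. These matches describe letters in a window and not binding.

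LINC00652, on chromosome 20, had the largest fall by size among the members called. Its log2 signal was 6.58, 5.91 and 6.09 in DMSO, 4.94 and 4.59 in JQ1, and 4.56, 5.53 and 4.70 in RVX-208. Treated arrays of both compounds lay below all DMSO arrays. It fell by 1.43 ± 0.29 with JQ1 (2.70-fold, adjusted p = 0.00842), a call lost without JQ1 replicate 2 (adjusted p = 0.0705). With RVX-208 the fall was 1.26 ± 0.26 (2.40-fold, adjusted p = 0.0334). That call was lost without any of the DMSO arrays (adjusted p = 0.0648, 0.055 and 0.0903 for replicates 1, 2 and 3), without RVX-208 replicate 1 (0.0757) and without RVX-208 replicate 3 (0.114).

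A further 5 falls with JQ1 held in all fits besides those of DLGAP1-AS1, CTBP1-DT and SNHG17. LINC00242, on chromosome 6, fell by 0.60 ± 0.09 (1.52-fold, adjusted p = 0.00234), from log2 signals of 6.58, 6.42 and 6.55 in DMSO to 5.75 and 6.07. GATD1-DT, divergent to GATD1, fell by 0.44 ± 0.08 (adjusted p = 0.00506), from 7.72, 7.78 and 7.69 to 7.23 and 7.36. LINC00574, LINC02983 and RHPN1-AS1 fell by 0.31 ± 0.06, 0.31 ± 0.06 and 0.29 ± 0.05. In all of them both JQ1 arrays lay below every DMSO array.

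The calls of the other named falls rested more on single arrays. LINC01699 fell by 0.54 ± 0.14 and LINC00670 by 0.52 ± 0.12, lost without JQ1 replicate 1 (adjusted p = 0.191) and without JQ1 replicate 2 (adjusted p = 0.118) respectively. LINC02893 fell by 0.51 ± 0.15, ZNF503-AS2 by 0.49 ± 0.13, LINC01101 by 0.44 ± 0.11 and LINC02249 by 0.43 ± 0.11, each lost without JQ1 replicate 2 (adjusted p = 0.169, 0.186, 0.154 and 0.0982). LINC01270, 1.29-fold lower, was lost without JQ1 replicate 1 (adjusted p = 0.228) and C2orf74-DT, 1.27-fold lower, without either JQ1 array (adjusted p = 0.107 and 0.0859). Some of these were lost without a DMSO array as well: LINC01699 without replicates 1 and 3 (0.0743 and 0.0726), LINC02893 without each (0.0534 to 0.102), ZNF503-AS2 without replicates 2 and 3 (0.077 and 0.0789), LINC01101 without replicates 1 and 3 (0.0529 and 0.0592), LINC01270 without each (0.0576 to 0.091) and C2orf74-DT without replicates 1 and 3 (0.0581 and 0.0571). LINC02893 and LINC02249 were also lost without JQ1 replicate 1 (0.112 and 0.0852).

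By class, JQ1 called 4 of 167 LINC genes higher and 14 lower, 2 of 132 antisense genes higher and 13 lower, and 1 of 25 divergent genes higher and 5 lower. Of the 16 microRNA hosts 2 were higher and 3 lower. The shares called were 10.8%, 11.4%, 24.0% and 31.2%, against 22.8% of all genes, and no difference between classes was tested. Of the 8 intronic genes none was called, with 2 at an unadjusted p under 0.05, beside 6329 of all 17845 genes tested. The median log2 fold change was -0.098 for LINC genes, -0.081 for antisense genes, -0.119 for divergent genes and -0.14 for microRNA hosts. These medians stayed below 0 after cyclic loess normalisation, at -0.038, -0.017, -0.078 and -0.087. That of the intronic genes was -0.012 and became 0.047. LINC00652 and ASB16-AS1 were the 2 members past 2-fold with JQ1. Uncalled members at the edges of their classes were PKD1L1-AS1 at 0.34 ± 0.13, PRDM16-DT at 0.24 ± 0.13, BIN3-IT1 at 0.16 ± 0.18 and ERC2-IT1 at -0.16 ± 0.09. SSTR5-AS1 had the lowest fitted value of the antisense genes after DLGAP1-AS1, -0.89 ± 0.73 (adjusted p = 0.427), with JQ1 arrays at 6.17 and 3.95 and DMSO arrays from 5.45 to 6.35.

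The SNHG genes host small nucleolar RNAs in their introns, and some of their spliced transcripts are removed by nonsense-mediated decay. SNHG17 is the host of SNORA71A to SNORA71D. Its log2 signal was 9.24, 9.18 and 9.08 in DMSO, 8.82 and 8.67 in JQ1, and 8.96, 9.03 and 8.96 in RVX-208. All treated arrays lay below all DMSO arrays. It fell by 0.42 ± 0.07 with JQ1 (adjusted p = 0.00374) and gave -0.18 ± 0.06 with RVX-208 (adjusted p = 0.112). SNHG29 gave 0.05 ± 0.05 (adjusted p = 0.593) with JQ1 on its brighter probe set, with signals of 11.42 to 11.51 in DMSO and of 11.54 and 11.47 in JQ1. Its other probe set read 9.37, 9.29 and 9.05 in DMSO and 9.62 and 9.40 in JQ1, a difference of 0.28 ± 0.11 (adjusted p = 0.111 when all probe sets were tested). MEG3, a maternally expressed imprinted gene, gave -0.22 ± 0.08 (adjusted p = 0.0709) with JQ1 and -0.14 ± 0.07 (adjusted p = 0.23) with RVX-208.

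Small nucleolar RNAs released by host genes of this kind were tested where they had a probe set of their own. Of 20 tested guests, JQ1 called 5 higher and none lower, with a median log2 fold change of 0.153, where 22.8% of all genes were called and 10.7% were higher. RVX-208 called none, against 6.28% of all genes. SNORA71A, SNORA71C and SNORA71D, carried by SNHG17, gave 0.04 ± 0.06, -0.10 ± 0.09 and 0.10 ± 0.06 with JQ1, and none was called. SNORD28, carried by SNHG1, had log2 signals of 9.72, 9.79 and 9.53 in DMSO and of 10.22 and 10.25 in JQ1, and rose by 0.56 ± 0.11 (adjusted p = 0.00741). SNORD50B, carried by SNHG5, rose by 0.53 ± 0.12 (adjusted p = 0.0116), and SNORD77, carried by GAS5, by 0.76 ± 0.20 (adjusted p = 0.0284). Without JQ1 replicate 2 the calls of SNORD28 (adjusted p = 0.0512), SNORD50B (0.0969) and SNORD77 (0.0563) were lost, and that of SNORD77 also without JQ1 replicate 1 (0.176) or DMSO replicates 1 and 3 (0.0655 and 0.0813). SNORD50A rose by 0.41 ± 0.12 and SNORD30 by 0.24 ± 0.07. The first was lost without either JQ1 array (0.122 and 0.195) or any RVX-208 array (0.0501 to 0.0626), and the second without JQ1 replicate 2 (0.216) or DMSO replicates 1 and 3 (0.0791 and 0.0757). Whether a probe set for a small nucleolar RNA reads the mature RNA or the host's intron was not tested.

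The microRNA hosts moved both ways. MIR22HG, host of miR-22 on chromosome 17, had log2 signals of 6.27, 6.35 and 6.30 in DMSO, 6.84 and 6.66 in JQ1, and 6.09, 6.36 and 6.16 in RVX-208. Only the JQ1 arrays stood apart. It rose by 0.44 ± 0.09 with JQ1 (adjusted p = 0.00813) and was higher than with RVX-208 by 0.55 ± 0.09 (adjusted p = 0.00678); without JQ1 replicate 1 both calls were lost (adjusted p = 0.0714 and 0.0602). MIR570HG rose by 0.41 ± 0.09 (adjusted p = 0.0124) and lost its call without JQ1 replicate 2 (adjusted p = 0.096) and under the housekeeping centring (0.25, adjusted p = 0.0608).

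MIRLET7BHG, host of let-7a-3 and let-7b on chromosome 22, had log2 signals of 6.42, 6.53 and 6.46 in DMSO, 6.24 and 6.24 in JQ1, and 6.0, 6.09 and 6.03 in RVX-208. The 3 groups did not overlap, and RVX-208 lay lowest. It fell by 0.43 ± 0.05 with RVX-208 (adjusted p = 0.00896), lost without RVX-208 replicate 3 (adjusted p = 0.0542). With JQ1 it fell by 0.23 ± 0.06 (adjusted p = 0.022), lost without DMSO replicate 2 (0.0661) and without either JQ1 array (0.0898 and 0.0956), and after cyclic loess normalisation it gave -0.15 (adjusted p = 0.0942). The difference between the compounds was 0.20 ± 0.06 (adjusted p = 0.0594). MIR1915HG fell by 0.34 ± 0.07 with JQ1 (adjusted p = 0.00672), lost without JQ1 replicate 1 (adjusted p = 0.0578), and MIR4453HG by 0.29 ± 0.07 (adjusted p = 0.0226), lost without JQ1 replicate 2 (adjusted p = 0.15) and DMSO replicates 2 and 3 (0.0589 and 0.0623). MIR17HG, host of a microRNA cluster led by miR-17 and a known MYC target, gave -0.34 ± 0.14 (adjusted p = 0.115). MIR646HG gave -0.44 ± 0.26 (adjusted p = 0.26).

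A selection of the mature microRNAs carried by MIR22HG, MIRLET7BHG, MIR1915HG and MIR4453HG is given to show seeds, bases 2 to 8 in capitals, of transcripts that were called. They come from RefSeq, GRCh38.p14, 5' to 3', and the array signals above are those of the host genes.
miR-22-3p: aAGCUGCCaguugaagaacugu
miR-22-5p: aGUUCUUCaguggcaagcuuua
let-7a-5p: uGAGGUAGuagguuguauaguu
let-7b-5p: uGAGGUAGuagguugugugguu
miR-1915-3p: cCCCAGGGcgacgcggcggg
miR-4453: gAGCUUGGucuguagcgguu
The let-7a and let-7b arms share the seed GAGGUAG, and the other arms shown have seeds of their own. The levels of the mature microRNAs were not measured in these samples.

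With RVX-208, 18 members were called (5.11%), 3 higher and 15 lower, where 6.28% of all genes were called, 3.06% higher and 3.22% lower. At an unadjusted p under 0.05 there were 97 members, beside 4987 of all 17845 genes tested. The median log2 fold change was -0.100 against -0.023 over all genes. With a log2 signal under 5, of 5 to 6 and of 6 to 7 it was -0.074, -0.132 and -0.099. All genes of like signal gave -0.057, -0.103 and -0.108. From 7 to 8 and at 8 or more it was -0.083 and -0.048, against -0.022 and 0.033. The RVX-208 arrays lay wholly above the DMSO arrays for 10 members and wholly below for 89, against 15.6% and 18.5% of all genes. Over all genes too, dim probe sets called with RVX-208 were mostly lower: 114 of 129 with a log2 signal of 5 to 6, against 137 of 475 at 8 or more. The count of members fell to 1 without RVX-208 replicate 3, to 3 without DMSO replicate 3, and to 8 without DMSO replicate 2, RVX-208 replicate 1 or RVX-208 replicate 2. The share called over all genes fell too, to 0.291%, 0.454%, 1.74%, 1.63% and 0.846% in these fits, in that order. After cyclic loess normalisation 3 members were higher and 9 lower, where 5.07% of all genes were called.

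None of the 15 falls with RVX-208 held in every fit with an array left out. CTDP1-DT, divergent to CTDP1, which encodes a phosphatase of the RNA polymerase II tail, had log2 signals of 5.88, 5.80 and 6.21 in DMSO, 5.61 and 5.68 in JQ1, and 5.38, 5.56 and 5.26 in RVX-208. It fell by 0.56 ± 0.11 (adjusted p = 0.0318) and was called in 3 of the 8 fits with an array left out. Leaving out DMSO replicate 1 (adjusted p = 0.051) or 3 (0.0723) lost the call, as did leaving out RVX-208 replicate 1 (0.0719), 2 (0.0542) or 3 (0.109). LINC03040 fell by 0.44 ± 0.06 (adjusted p = 0.0155), LINC00207 by 0.43 ± 0.06 (adjusted p = 0.0176) and GSN-AS1 by 0.37 ± 0.05 (adjusted p = 0.0158). All 3 were lost without RVX-208 replicate 3 (adjusted p = 0.0659, 0.0688 and 0.0716), and the last pair also without DMSO replicate 3 (0.0536 and 0.0549).

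Further falls with RVX-208 were those of GLIS3-AS1, DOCK8-AS1, IRX2-DT and SLC24A3-AS1, by 0.41 ± 0.07, 0.36 ± 0.08, 0.33 ± 0.05 and 0.29 ± 0.07. Without RVX-208 replicate 3 their adjusted p values were 0.0673, 0.132, 0.0777 and 0.137, and without DMSO replicate 3 they were 0.0712, 0.128, 0.0629 and 0.0849. DOCK8-AS1 was called in 0 of the 8 fits (adjusted p from 0.0536 to 0.132) and SLC24A3-AS1 in 2. GLIS3-AS1 and IRX2-DT were also lost without DMSO replicate 2 (0.055 and 0.0501), and further without RVX-208 replicate 2 (0.0542) and replicate 1 (0.0505) respectively. The remaining falls were those of LINC01940 by 0.29 ± 0.07, GATA3-AS1 by 0.28 ± 0.05, EPB41L4A-DT by 0.27 ± 0.06 and MIR1915HG by 0.27 ± 0.06 (adjusted p = 0.0416, 0.0254, 0.0447 and 0.0391). LINC01940 and MIR1915HG were called in 0 of the 8 fits (adjusted p up to 0.108 and 0.125), GATA3-AS1 in 3 and EPB41L4A-DT in 1, and without RVX-208 replicate 3 the latter 2 stood at 0.0968 and 0.145. STARD7-AS1, with log2 signals of 6.94, 6.78 and 7.07 in DMSO and 7.20, 7.23 and 7.31 in RVX-208, rose by 0.32 ± 0.08 (adjusted p = 0.0449). That call was lost whichever array was left out, up to an adjusted p of 0.145 without RVX-208 replicate 3.

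JQ1 and RVX-208 were given at different concentrations, so their direct comparison is of these exposures and not of the compounds at a matched dose. It called 15 members (4.26%), 9 higher and 6 lower with JQ1, where 10.9% of all genes were called, 4.16% higher and 6.78% lower. The arrays of the 2 treatments were wholly apart, with JQ1 above, for 69 members (20.4% of all genes) and with JQ1 below for 50 (22.4% of all genes). MALAT1 and ASB16-AS1 were higher with JQ1 by 0.58 ± 0.08 (adjusted p = 0.00367) and 0.60 ± 0.08 (adjusted p = 0.0025). DLGAP1-AS1 and CTBP1-DT were lower by 0.68 ± 0.07 (adjusted p = 0.0009907) and 0.54 ± 0.07 (adjusted p = 0.00274). RHPN1-AS1, with log2 signals of 6.26 and 6.31 in JQ1 and 6.67, 6.63 and 6.59 in RVX-208, was lower by 0.34 ± 0.05 (adjusted p = 0.00582).

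C2orf74-DT lay on opposite sides of DMSO in the 2 treatments. Its log2 signal was 7.91, 7.69 and 7.83 in DMSO, 7.46 and 7.48 in JQ1, and 8.01, 7.95 and 8.18 in RVX-208. It was lower with JQ1 than with RVX-208 by 0.58 ± 0.09 (adjusted p = 0.00456), which held with any array left out. Against DMSO it gave -0.34 ± 0.09 (adjusted p = 0.0221) with JQ1 and 0.24 ± 0.08 (adjusted p = 0.0982) with RVX-208. LINC01128, LINC00242 and LINC00207 were also called between the compounds, at 0.58 ± 0.12, -0.44 ± 0.09 and 0.30 ± 0.07. Each was lost without a JQ1 array, the first pair without replicate 1 (adjusted p = 0.141 and 0.119) and LINC00207 without replicate 2 (0.18), and without RVX-208 replicate 3 (0.0514, 0.0649 and 0.0638). LINC01128 was also lost without JQ1 replicate 2 (0.0507) or RVX-208 replicate 1 (0.0571), LINC00242 without RVX-208 replicate 2 (0.0539), and LINC00207 without RVX-208 replicates 1 and 2 (0.0821 and 0.0539). MIR570HG gave 0.48 ± 0.09 (adjusted p = 0.0131), lost without JQ1 replicate 2 (0.0958).

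Antisense, intronic and divergent genes are named after a partner gene, and 124 such pairs had both genes tested. With JQ1, 16 members and 29 partners (23.4%, against 22.8% of all genes) of these pairs were called. Both genes were called in the pairs of ASB16-AS1 and CD300LD-AS1. ASB16, which encodes a substrate receptor of a ubiquitin ligase, had log2 signals of 7.46, 7.38 and 7.47 in DMSO, 7.21 and 7.27 in JQ1, and 7.15, 7.15 and 7.23 in RVX-208. It moved against its antisense gene, by -0.20 ± 0.06 (adjusted p = 0.037) with JQ1 and by -0.26 (adjusted p = 0.0291) with RVX-208, but each call held in only 2 of 8 fits with an array left out, with adjusted p up to 0.178 without JQ1 replicate 1 and 0.091 without DMSO replicate 3. CD300LD-AS1 and CD300LD both fell with JQ1, by 0.30 ± 0.08 (adjusted p = 0.0263) and 0.30 ± 0.08 (adjusted p = 0.0278). The call of CD300LD-AS1 was lost without DMSO replicate 2 (0.0679) or JQ1 replicate 2 (0.18), and that of CD300LD without any of the DMSO arrays (0.0536 to 0.0691) or either JQ1 array (0.126 and 0.0979).

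Large changes of partners stood beside noncoding genes that were not called. PRDM10, a zinc finger factor, had log2 signals of 7.93, 7.98 and 7.93 in DMSO, 6.90 and 7.07 in JQ1, and 7.43, 7.62 and 7.58 in RVX-208, and fell by 0.96 ± 0.08 with JQ1 (adjusted p = 0.0001003). Its divergent gene PRDM10-DT, from 5.39 to 5.46 in DMSO and 5.48 and 5.47 in JQ1, gave 0.05 ± 0.06, with an interval from -0.08 to 0.17. BAIAP2, an adaptor between the membrane and actin, rose by 0.79 ± 0.08 (adjusted p = 0.0002733) beside BAIAP2-DT at -0.19 ± 0.10. CIRBP, a cold-inducible RNA-binding protein, rose by 0.65 ± 0.06 (adjusted p = 0.000234) beside CIRBP-AS1 at 0.03 ± 0.07, and the transcription factor ETS2 fell by 0.67 ± 0.05 (adjusted p = 0.000102) beside ETS2-AS1 at -0.01 ± 0.12. The difference between the genes of a pair was not tested, and the noncoding genes were the dimmer side: the partners' median log2 signal was 7.91.

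**Figure D4:**
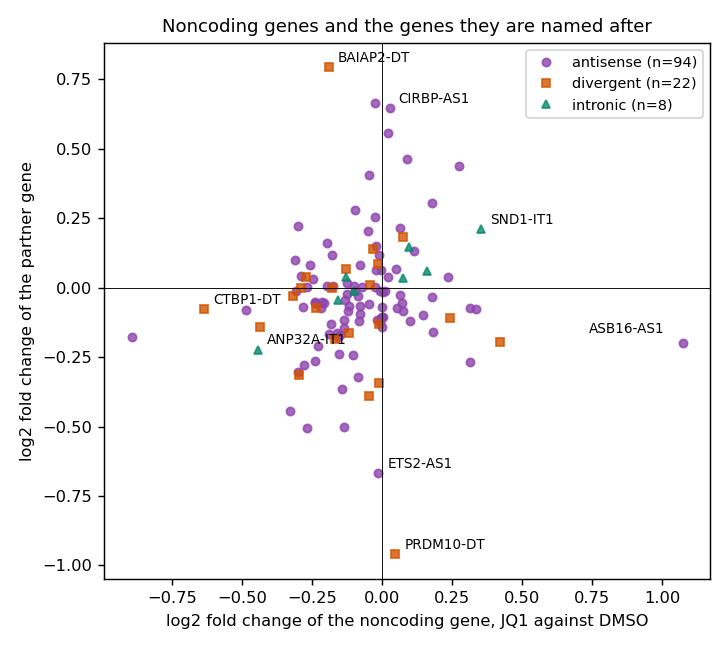
Log2 fold change with JQ1 of 124 noncoding genes (horizontal) and of the genes they are named after (vertical), by class. The points scatter about both axes. ASB16-AS1 and CTBP1-DT lie far from 0 with partners near it. PRDM10-DT, BAIAP2-DT and ETS2-AS1 lie near 0 with partners far from it. The 8 intronic pairs run from lower left to upper right, with SND1 and ANP32A nearer to 0 than SND1-IT1 and ANP32A-IT1.

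Across the 124 pairs the log2 fold changes of member and partner had a Pearson correlation of 0.12 with JQ1 and 0.13 with RVX-208, given as a description since both genes of a pair come from the same arrays. For the 44 pairs whose starts lie within 1000 bases on opposite strands it was 0.03 with JQ1 and 0.1 with RVX-208. For the 35 pairs on opposite strands with starts farther apart it was 0.22 and 0.46. For the 42 pairs whose arrangement could not be placed it was 0.03 and -0.08. For the 8 intronic genes it was 0.94 with JQ1 and 0.53 with RVX-208. SND1-IT1 gave 0.35 ± 0.14 (adjusted p = 0.104) beside SND1, which rose by 0.21 (adjusted p = 0.0265), and ANP32A-IT1 gave -0.44 ± 0.16 (adjusted p = 0.0751) beside ANP32A, which fell by 0.22 (adjusted p = 0.035). Both partner calls were lost without either JQ1 array, SND1 at 0.127 and 0.0802 and ANP32A at 0.0665 and 0.195. SND1 was also lost without DMSO replicates 2 and 3 (0.0736 and 0.0669). ANP32A was also lost without DMSO replicates 1 and 2 (0.0843 and 0.0766) or RVX-208 replicate 3 (0.0554). A probe inside an intron can read the partner's unspliced transcript where both run on the same strand. The part of such signal in these values was not tested.

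With RVX-208, 10 members and 8 partners (6.45%, against 6.28% of all genes) of the pairs were called. IRX2-DT and IRX2, a homeobox factor, both fell, by 0.33 ± 0.05 (adjusted p = 0.0185) and 0.24 (adjusted p = 0.0378); IRX2 was called in 0 of the 8 fits with an array left out (adjusted p from 0.0513 to 0.131). For LINC genes, which carry no partner's name, the nearest protein-coding gene tested was taken. Of 162 LINC genes placed, 30 had a neighbour called with JQ1 (18.5%, against 22.8% of all genes), and none of the 18 called LINC genes was among them. No test of that overlap was made.

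Noncoding genes known by names outside the rule were also measured. Of 16 tested, among them TUG1, ZFAS1, DLEU2, RMRP and TERC, JQ1 called HCP5 higher and TUG1 lower, and RVX-208 called none. HCP5, a noncoding gene of the major histocompatibility complex, had log2 signals of 6.77, 6.68 and 6.55 in DMSO, 7.22 and 7.53 in JQ1, and 6.92, 6.79 and 7.03 in RVX-208. It rose by 0.71 ± 0.11 (adjusted p = 0.00225) in JQ1, a call that held with any array left out. TUG1 gave -0.18 ± 0.05 (adjusted p = 0.0351), called in 0 of the 8 fits with an array left out (adjusted p from 0.053 to 0.175). Over the 143 genes that RefSeq classes as lncRNA outside the rule, JQ1 called 6 higher and 7 lower (9.09%, against 22.8% of all genes) and RVX-208 called 1 higher and 6 lower (4.90%, against 6.28%).

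The machinery that removes such transcripts was measured on brighter probe sets. Of 17 tested genes of the nuclear exosome and its adaptors, JQ1 called 7 lower and 2 higher, and RVX-208 called none. Over all genes 22.8% were called with JQ1, 35.1% of those with a log2 signal of 8 or more, and 6.28% with RVX-208. ZCCHC8, the scaffold of the nuclear exosome targeting complex, had log2 signals of 8.82, 8.75 and 8.66 in DMSO, 8.14 and 8.03 in JQ1, and 8.67, 8.72 and 8.63 in RVX-208, and fell by 0.66 ± 0.07 (adjusted p = 0.0002994). EXOSC9, a subunit of the exosome ring, fell by 0.56 ± 0.07, the helicase MTREX by 0.35 ± 0.06 and the nuclease EXOSC10 by 0.35 ± 0.05. TENT4B, a poly(A) polymerase that marks nuclear RNA for decay, rose by 0.52 ± 0.08 (adjusted p = 0.00261). Of 7 nonsense-mediated decay factors tested, SMG6, a nuclease of that pathway, rose by 0.21 ± 0.06 with JQ1 (adjusted p = 0.0453), and the others were not called. The call of SMG6 was lost in 7 of the 8 fits with an array left out (adjusted p from 0.0532 to 0.2).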

How the data were processed

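Affymetrix Human Gene 1.0 ST arrays were hybridised with labelled RNA of 8 samples. The deposited table holds log2 values per probe set, made by the authors with RMA in R 2.15.3 with limma 3.14.4, per the submitters' processing notes. Their log2 fold changes in the authors' deposited table equalled differences of group means within 0.0001 for all 353 member probe sets. The filter that led to 19816 probe sets, detection calls and array batches are not given in the sources used here, and signals give no counting error; precision rests on the 8 arrays. The deposited F score and its p-value, which the authors computed with limma per the file headers, were not used.

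Genes were named through the platform annotation: 17859 probe sets had 1 symbol, 997 several and 960 none, and only the first kind was used. Of several probe sets of a gene, the one with the highest mean was kept. A group-means model over 8 arrays was fitted with limma 3.58.1 (lmFit, eBayes, 8.55 degrees of freedom) in R 4.3.3, with Benjamini-Hochberg adjustment over 17845 genes, two-sided. The threshold for a call was an adjusted p under 0.05 without a fold minimum. Tables and plots used Python 3.11.15, pandas 2.3.3 and matplotlib 3.10.9. On simulated data for JQ1 against DMSO (17845 genes, 5 simulations), 25.8% of log2 changes of 0.3, 76.2% of 0.6 and 94% of 1 were called, with 3.53% false calls. The simulations changed only a small share of all genes and used independent normal noise, whereas 22.8% of genes were called in the data. Their rates therefore do not carry over to the real comparison, nor to the members, whose standard errors were larger.

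The members and lists were chosen with earlier results of these data known. Genes named with values are up to 15 called rises and 15 called falls by size with JQ1, 10 each way with RVX-208 and 5 each way between the compounds, with groups of arrays that do not overlap, the SNHG genes, MALAT1, MEG3, and up to 2 genes at each end of a class; LINC00574, LINC02983, MIR4453HG, MIR17HG, CD300LD-AS1, LINC01940, GATA3-AS1, EPB41L4A-DT and the partners shown were chosen after their values were seen. Alternatives covered normalisation, centring on housekeeping genes, filters, variance priors, weights, samples fitted, a replicate block and leaving out each array.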

Additional observations from a re-analysis of the deposited data

How the results depend on the processing

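None of the 46, 18 and 15 members called in the 3 comparisons changed sign under any alternative run. The number called was least stable for RVX-208: 18 became 31 with a variance prior that follows signal, 94 (2 higher, 92 lower) after centring on 10 housekeeping genes, and ranged from 1 to 16 when 1 array was left out. All genes moved as well, from 6.28% called in the main fit to 12.6% with that prior and 20.9% after the centring. Without RVX-208 replicate 3 (1 member) 0.291% of all genes were called, and without DMSO replicate 1 (16 members) 3.95%. For JQ1 the 46 became 159 (7 higher, 152 lower) after that centring and 28 to 45 with an array left out. For JQ1 against RVX-208 the 15 became 24 when only genes with a mean log2 signal of 6 or more were tested, and 9 to 19 with an array left out. Of all genes, 10.9% were called in the main fit of this comparison, and 21.5% of the 12480 that passed that filter. With an array left out, 6.55% of all genes were called where 9 members were, and 11.1% where 19 were. Under the housekeeping centring 48.0% of all genes were called with JQ1, against 22.8% in the main fit. The median over all genes was then -0.206 with JQ1 and -0.122 with RVX-208, and the members' medians were -0.259 and -0.199. After cyclic loess the members' medians were -0.035 and -0.018, and the split of calls was 16 higher and 24 lower for JQ1. With an array left out the medians ran from -0.123 to -0.049 for JQ1 and from -0.127 to -0.085 for RVX-208. The centring subtracts the mean of the 10 housekeeping genes from each array. Before it these genes had a median log2 fold change of 0.131 with JQ1, with 2 called higher. With RVX-208 it was 0.095, with none called. The centring thus lowered the fold changes of all genes. The cause of the other shifts was not tested. Same-numbered arrays of different groups had correlations of their deviations from group means that ran from -0.15 to 0.076. Deviations from means of 2 or 3 arrays cannot settle whether the replicate numbers pair the arrays. With the replicate number as a block, 38 members were called for JQ1, 2 for RVX-208 and 8 for JQ1 against RVX-208. The shares of all genes called with the block were 17.1%, 0.448% and 5.88%. Low signal over background limits what the dim members can show.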
